A study of Mus musculus with 4 samples.

Results

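The genes described here encode nuclear receptors, which are transcription factors that bind hormones, vitamins or lipids, and the coregulators that these receptors recruit. They were chosen by name. The list held 33 gene symbols, 26 of receptors and 7 of coregulators, and 32 of them matched a row of a table of 18781 genes. The level of the receptor gene Pgr was not analysed here. Values came from 4 RNA-seq libraries of mature adipocytes purified from mice of the inbred strain C57BL/6, aged P30 (postnatal day 30). The 2 dermal libraries (labelled dWAT) were made from dermal adipocytes, the fat cells within the skin, and the 2 inguinal libraries (labelled sWAT) from inguinal adipocytes. All libraries shared strain, age, digestion with collagenase IV and dispase II, and collection by flotation. The labels name no treatment or genetic change, and they do not say whether replicates came from separate animals or pools. Each p-value therefore reflects the spread among these 4 libraries, which may be technical.

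A nuclear receptor carries a DNA-binding domain and, in most cases, a pocket for a small ligand. Retinoid X receptors pair with the receptors for retinoic acid, thyroid hormone, vitamin D and fatty acids, whereas steroid receptors bind DNA mostly as pairs of themselves. Without ligand several of these receptors recruit corepressors such as NCOR1, and ligand exchanges them for coactivators such as the NCOA proteins and the Mediator complex. In adipocytes this system is best known through PPARG, which with RXRA drives fat cell differentiation.

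Short stretches upstream of 3 receptor genes are shown because 2 of these genes, Vdr and Rara, gave the depot differences that persisted in every alternative analysis, and the third, Rarb, is a textbook target of the retinoic acid receptors themselves. Sequences and transcription starts are those of RefSeq on GRCm38.p6, the build that mm10 denotes, and are written 5′ to 3′ on the strand of the gene. In Rarb the capitals mark a direct repeat of GTTCA, the retinoic acid response element, within a stretch that runs from -59 to -30 relative to the listed transcription start and lies in annotated exon bases of another Rarb transcript. In Vdr and Rara the capitals mark GC boxes, GGGCGG on either strand.
Rarb, chr14:16575506-16575535, minus strand: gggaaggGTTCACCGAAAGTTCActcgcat
Vdr, chr15:97908317-97908416, minus strand: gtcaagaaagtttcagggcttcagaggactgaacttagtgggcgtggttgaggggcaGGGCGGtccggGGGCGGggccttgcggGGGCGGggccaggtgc
Rara, chr11:98937546-98937675, plus strand, at the first of its listed starts: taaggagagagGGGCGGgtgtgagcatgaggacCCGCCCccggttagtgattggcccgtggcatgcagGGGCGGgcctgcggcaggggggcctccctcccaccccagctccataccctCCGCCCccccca
The motif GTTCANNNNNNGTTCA, searched on both strands of the 250 bases upstream of each start, occurred in 0.067% of 32851 windows over all genes, and among the 48 windows of 29 member genes it occurred in that of Rarb alone. The GC box occurred in 32.7% of all windows and in 23 of the 48 member windows, which belong to 19 genes. A single receptor half-site, AGGTCA, occurred in 14% of all windows and in 6 of the 48 member windows, those of Nr5a2, Nr6a1, Rarg, Rxra, Rxrg and Thrb. The extended half-site TCAAGGTCA (0.387% of all windows) and the estrogen response element GGTCANNNTGACC (0.0639%) had no match upstream of a member. These matches describe the letters in these windows.

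The libraries held 10127125 to 12730013 reads assigned to genes. Levels are normalized CPM, read counts scaled to the size of each library, in which 1 read was worth 0.0844 to 0.0969 CPM. Depot differences are log2 fold changes of dermal over inguinal libraries on the log2(CPM + 0.5) scale, which understates the change of low genes. They were tested with limma over the 12797 genes that reached 1 CPM in at least 2 libraries, two-sided, with Benjamini-Hochberg adjustment over all of them and a threshold of 0.05. By this rule 968 genes (7.56%) passed with a higher dermal level and 1126 (8.8%) with a higher inguinal level, 16.4% in all. The total was 2094, and without dermal replicate 1 it was 1023 and without dermal replicate 2 it was 1037. The adipocyte markers were abundant in every library, with a summed level of 15 genes of 53161 to 57355 CPM. Of these 15 markers, 2 (Lep and Plin1) passed as higher in dermal and 0 as higher in inguinal libraries. Their estimates were positive for 11 and negative for 4. The preparations also carried transcripts of other cells. The 14 macrophage markers summed to 1824 and 1715 CPM in dermal samples against 658 and 618 CPM in inguinal samples, and 12 of them passed as higher in dermal libraries. The 15 endothelial markers summed to 503 and 557 CPM in dermal samples against 1786 and 2751 CPM in inguinal samples, and all 15 passed as higher in inguinal libraries. In such bulk RNA, fewer cells of a type and less RNA per cell cannot be told apart.

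Of the 25 receptor genes in the table, 21 passed the expression filter. Among those, 4 were higher in dermal libraries (Vdr, Rara, Esr1 and Rxra), 2 were higher in inguinal libraries (Rarb and Esrrg) and 15 did not pass, against 16.4% of all genes called. Over all 12797 tested genes, 4164 had an unadjusted limma p below 0.05, and on the recovered reads edgeR called 2056 and DESeq2 called 1985. Of the 7 coregulator genes, all of which were tested, 0 passed with limma and 0 had an unadjusted p below 0.05. On the recovered reads, edgeR and DESeq2 also called 0 of them. In GRCm38 with GENCODE M21 the called genes lie at chr15:97854425-97910630 (Vdr), chr11:98927818-98974942 (Rara), chr10:4611593-5005614 (Esr1), chr2:27676440-27762957 (Rxra), chr14:16430839-16819156 (Rarb) and chr1:187608791-188214885 (Esrrg). The median log2 fold change was 0.16 for the tested receptors, -0.21 for the coregulators and 0.02 for all tested genes. Libraries of the depots did not overlap for 18 of the 21 tested receptors and 5 of the 7 coregulators. This held for 61.8% of all tested genes. Of the 18 receptors 12 were higher in dermal libraries (31.6% of all tested genes) and 6 in inguinal libraries (30.1%). Vdr, Rarb and Esrrg, which are among the 18, reached 1 CPM in the libraries of 1 depot alone. The filter thus fixed that their libraries did not overlap, and they entered the test only because they were high there. Of the 394 tested genes that entered that way, 37.6% were called, against 15.7% of the genes that reached 1 CPM in both depots, and the count of called receptors is given as a description.

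**Figure D1:**
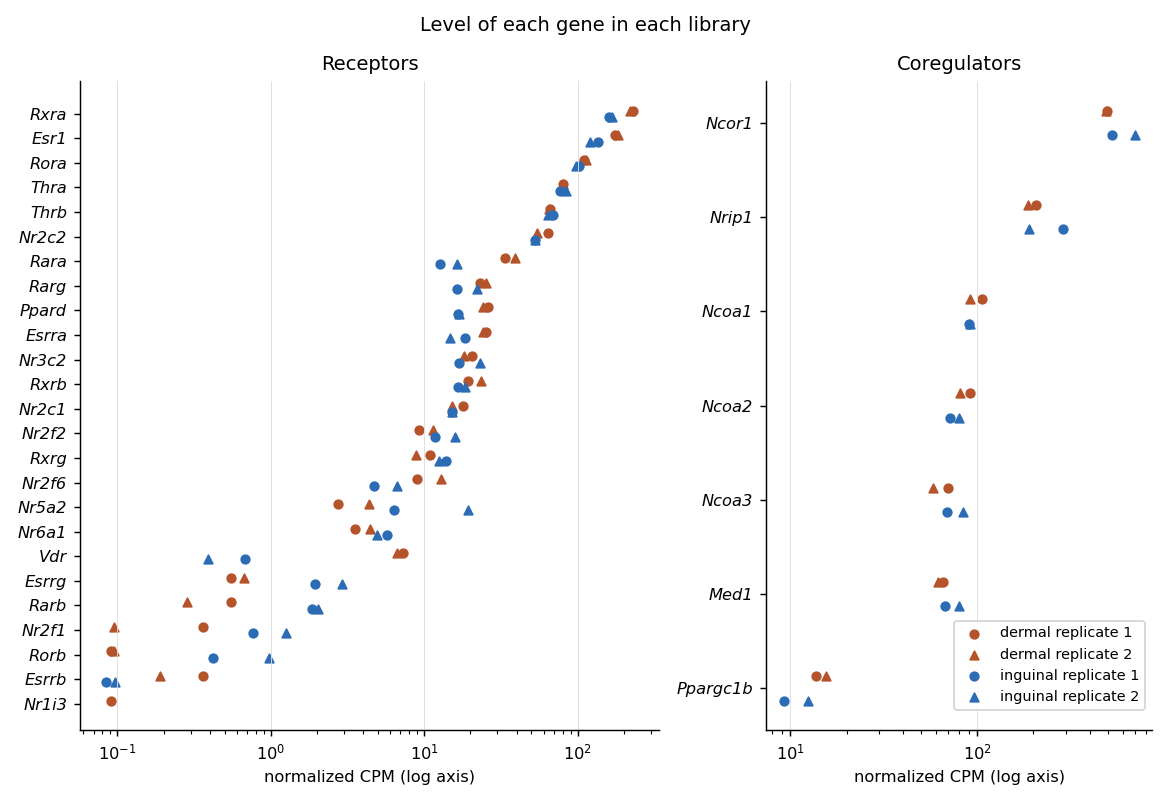
Normalized CPM (log axis) of each receptor gene and each coregulator gene in each of the 4 libraries, with genes ordered by mean level. Most genes lie close together across the 4 libraries, while Vdr is near 7 CPM in both dermal libraries and below 1 CPM in both inguinal libraries. Libraries in which Nr1i3 had a level of 0 are not drawn.

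Scaled by the exon length of each gene, the members spanned a wide range of levels. The corepressor gene Ncor1 and Rxra were the highest, and their order differed by depot. In dermal samples Rxra (42.0 and 40.4 CPM per kilobase) was above Ncor1 (38.4 and 38.1 CPM per kilobase), and in inguinal samples it was below it (29.1 and 30.7 against 41.3 and 54.4 CPM per kilobase). Nrip1 followed at 16.3 to 25.2 CPM per kilobase, in a range that overlapped that of Thra (16.7 to 18.1 CPM per kilobase). Esr1 (8.80 to 13.4 CPM per kilobase) and Ncoa1 (10.5 to 12.3 CPM per kilobase) came next and could not be ordered. Thrb, Ncoa3, Rora and Med1 lay between 7.02 and 10.6 CPM per kilobase. The called genes Vdr, Esrrg and Rarb each reached at most 1.29 CPM per kilobase in any library, and Nr2f1, Rorb, Esrrb and Nr1i3 had the lowest means. Lengths were taken from GENCODE M21, which may differ from the gene models that the authors counted on.

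Among the retinoic acid receptors, which bind all-trans retinoic acid, Rara was higher in dermal and Rarb in inguinal libraries. Rara measured 33.6 and 39.0 CPM in dermal samples against 12.8 and 16.4 CPM in inguinal samples. Both dermal libraries exceeded both inguinal libraries, and the mean was 2.49-fold higher (log2 fold change 1.29, SE 0.18, limma adjusted p = 0.00762). Rara was called in all 14 alternatives, with log2 fold changes from 1.12 without inguinal replicate 1 to 1.47 without inguinal replicate 2. Rarb went the other way, from low counts. It measured 0.546 and 0.285 CPM in dermal libraries, from 9 reads in all, and 1.86 and 2.04 CPM in inguinal libraries, from 43 reads. The log2 fold change of Rarb was -1.43 (SE 0.33, limma adjusted p = 0.0328). That call ended with DESeq2 (adjusted p = 0.0885) and whenever a library was left out, with limma adjusted p from 0.0531 without inguinal replicate 1 to 0.148 without dermal replicate 2. The other 2 left-out libraries gave 0.0639 (dermal replicate 1) and 0.0736 (inguinal replicate 2).

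Rarb shares 34.1% of its exon length with Top2b, which lies on the opposite strand and encodes a DNA topoisomerase. Top2b was far more abundant, at 192 ± 4.19 CPM in dermal samples against 247 ± 12.1 CPM in inguinal samples (SD, n = 2 each, limma adjusted p = 0.0942). How the counting treated strand is not stated in the labels or notes, and Top2b reads counted to Rarb cannot be told apart from its own. Rarg measured 23.2 and 25.3 CPM in dermal samples against 16.5 and 22.2 CPM in inguinal samples. Its dermal libraries were the higher pair, but the difference did not pass (log2 fold change 0.33, 95% interval -0.13 to 0.80, limma adjusted p = 0.279). As a share of the length-scaled level of the 3 genes, Rara made up 58.1% and 59.8% in dermal and 40.9% and 40.1% in inguinal libraries. Rarg made up 41.1% and 39.8% in dermal and 54.1% and 55.7% in inguinal libraries. Rara was thus the leading subtype in both dermal libraries and Rarg in both inguinal libraries. With 2 libraries against 2, an exact permutation test of such a share cannot go below p = 0.33, so the shares are given as a description.

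**Figure D2:**
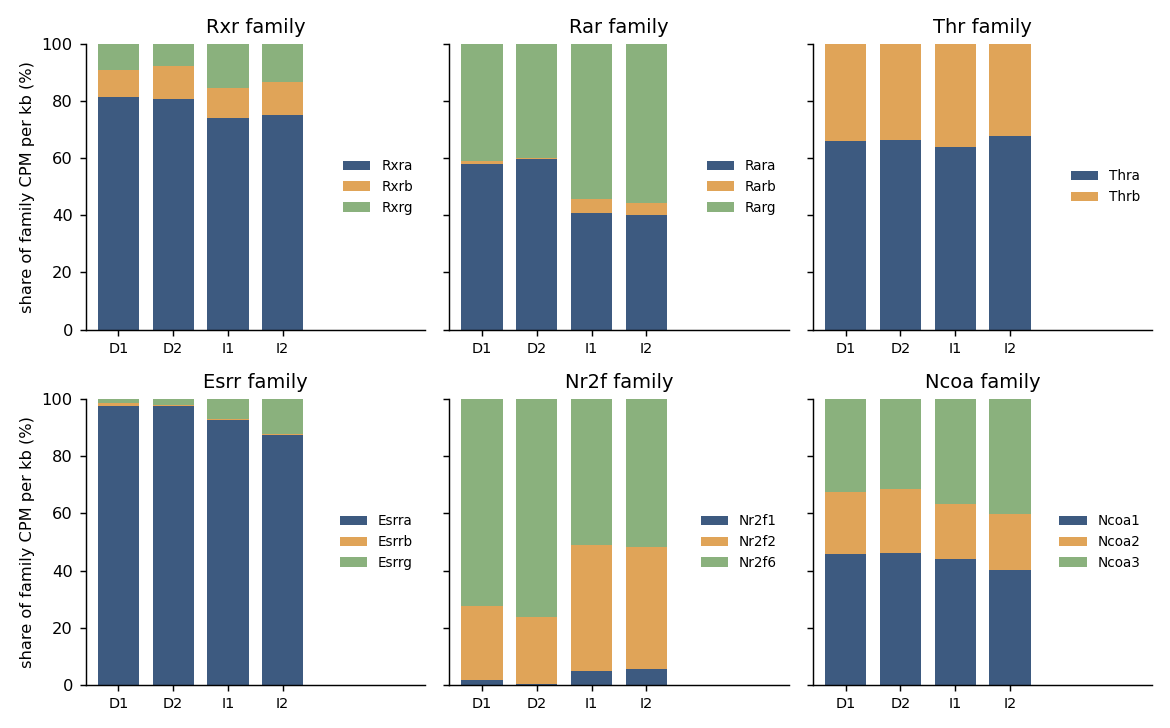
Share of each subtype (percent) in the length-scaled CPM of its family, with 1 bar per library (D1 and D2, dermal replicates; I1 and I2, inguinal replicates). The Rara share is 58.1% and 59.8% in dermal and 40.9% and 40.1% in inguinal libraries, and the Thra share lies between 64.1% and 67.8% in all 4.

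Retinoid X receptors, the shared partners, were dominated by Rxra in each library. Rxra measured 229.7 and 221 CPM in dermal samples against 159 and 168 CPM in inguinal samples. The depots did not overlap, the mean was 1.38-fold higher in dermal libraries, and the log2 fold change of 0.46 (SE 0.12) passed narrowly (limma adjusted p = 0.0474). The call ended with edgeR (adjusted p = 0.0536), with DESeq2 (0.0774), without a filter (0.0644) and without the intensity trend (0.104). It also ended without dermal replicate 1 (limma adjusted p = 0.306), dermal replicate 2 (0.250) or inguinal replicate 1 (0.0756). Rxrb (log2 fold change 0.28, limma adjusted p = 0.313) and Rxrg (-0.41, 0.198) did not pass. Rxrg, which encodes the subtype with the most restricted expression, measured 10.8 and 8.82 CPM in dermal samples against 13.8 and 12.5 CPM in inguinal samples. Its share of the length-scaled family level was 9.13% and 7.66% in dermal and 15.3% and 13.3% in inguinal libraries, while that of Rxra was 81.4% and 80.6% against 74.1% and 75.3%.

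The vitamin D receptor gene showed the largest positive log2 fold change among the tested members. Vdr, whose product binds the hormonal form of vitamin D and is required for normal hair cycling, measured 7.28 and 6.64 CPM in dermal samples against 0.676 and 0.388 CPM in inguinal samples. Both dermal libraries lay far above both inguinal libraries, with 150 reads against 12 reads. The ratio of normalized reads was 12.9, with a 95% counting interval (Clopper-Pearson) of 7.15 to 25.5 that covers counting error only. The fitted log2 fold change was 2.87 (SE 0.28, limma adjusted p = 0.00289). Vdr reached 1 CPM in the dermal libraries alone, so it entered the test only because it was high there. The filter thus fixed that its libraries did not overlap. Vdr was called in all 14 alternatives, and its log2 fold change lay between 2.38 and 3.68. Apart from the fit without a filter, these alternatives also tested only genes that passed a CPM filter. Keratinocytes and hair follicle cells express Vdr as well. Of 8 tested keratinocyte and hair follicle markers 7 passed as higher in dermal libraries. Of these 8, 5 reached 1 CPM in the dermal libraries alone, so they entered the test only because they were high there. Of all 394 tested genes that entered through 1 depot alone, 37.6% were called. The 14 markers in the table summed to 127 and 62.8 CPM in dermal samples against 25.5 and 17.5 CPM in inguinal samples. Krt17, Dsc3 and Msx2 were at 0 in both inguinal libraries. The macrophage markers described above were also higher in dermal libraries, and the part of either cell type in the Vdr difference was not tested. Of 8 textbook target genes of the vitamin D receptor, 4 were in the table and 0 passed the filter. The highest of these, Spp1, reached 1.82 CPM.

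Neither thyroid hormone receptor gene passed in the comparison of the depots. Thra measured 80.01 and 80.4 CPM in dermal samples against 76.8 and 83.7 CPM in inguinal samples. The dermal values lay within the inguinal ones, and the 95% interval of the log2 fold change was -0.30 to 0.30. Thra shares 5.7% of its exon length with Nr1d1 on the opposite strand, a clock receptor gene higher in inguinal libraries (log2 fold change -0.99, limma adjusted p = 0.0110). Thrb measured 65.7 and 65.2 CPM in dermal samples against 69.1 and 63.8 CPM in inguinal samples, again with overlap (log2 fold change -0.02, 95% interval -0.32 to 0.28). The intervals leave room for a difference of up to 0.32 on the log2 scale in either gene. The subtype balance also varied little, with a Thra share of 66.1% and 66.4% in dermal and 64.1% and 67.8% in inguinal libraries.

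Among steroid receptors, Esr1, which encodes the main estrogen receptor of adipose tissue, was higher in dermal libraries. Esr1 measured 175 and 183 CPM in dermal samples against 135 and 120.2 CPM in inguinal samples, without overlap (log2 fold change 0.49, SE 0.13, limma adjusted p = 0.0476). Like that of Rxra, the call lay at the threshold. It ended with edgeR (adjusted p = 0.0511), DESeq2 (0.0719), no filter (0.0642) and no intensity trend (0.104). It also ended without dermal replicate 1 (limma adjusted p = 0.224), dermal replicate 2 (0.290) or inguinal replicate 2 (0.0895). Nr3c2, which encodes the mineralocorticoid receptor, measured 20.5 and 18.2 CPM in dermal samples against 16.9 and 23.2 CPM in inguinal samples, which overlapped (log2 fold change -0.03, 95% interval -0.52 to 0.45). The glucocorticoid receptor gene Nr3c1, which is outside the list, did not pass (log2 fold change 0.01, limma adjusted p = 0.980).

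Estrogen-related receptors bind no known natural hormone and, with PGC-1 coactivators, act on mitochondrial genes. Esrrg measured 0.546 and 0.664 CPM in dermal libraries, from 13 reads, and 1.94 and 2.91 CPM in inguinal libraries, from 53 reads. The inguinal libraries were higher (log2 fold change -1.39, SE 0.32, limma adjusted p = 0.0344). Their lack of overlap followed from the filter, which Esrrg passed through the inguinal libraries alone. The Esrrg call ended with DESeq2 (adjusted p = 0.0764), with the same total in each library (limma adjusted p = 0.0506), and without dermal replicate 1 (0.126), dermal replicate 2 (0.0949) or inguinal replicate 2 (0.107). Esrra pointed the other way, at 25.4 and 24.1 CPM in dermal samples against 18.3 and 14.7 CPM in inguinal samples. It did not pass (log2 fold change 0.58, SE 0.17, limma adjusted p = 0.0713), although it did with the same total in each library (0.66, adjusted p = 0.0478). That scaling raised the median log2 fold change of all tested genes to 0.095, from 0.0162. Esrra did not pass with edgeR, DESeq2, either pseudocount, either filter setting, quantile normalization or no intensity trend. With 1 library left out, its log2 fold change lay between 0.42 and 0.73. In each library Esrra supplied most of the length-scaled level of the 3 genes, from 87.4% in inguinal replicate 2 to 97.5% in dermal replicate 2. Esrrb had 6 dermal and 2 inguinal reads, below the filter. Whether the Esrra and Esrrg differences differ from each other was not tested.

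Ppard, whose product senses fatty acids and induces genes of their oxidation, measured 25.9 and 24.2 CPM in dermal samples against 16.6 and 16.8 CPM in inguinal samples. The depots did not overlap, yet the log2 fold change of 0.57 (SE 0.15) fell just short of the threshold (limma adjusted p = 0.0501). It passed with a pseudocount of 0.1 (0.0491), with a filter at 5 CPM (0.0470) and with the same total in each library (0.0462). The last of these raised the median log2 fold change of all tested genes to 0.095, as given above. Ppard did not pass with edgeR, DESeq2, a pseudocount of 1, quantile normalization, no filter or no intensity trend. With 1 library left out, its log2 fold change lay between 0.52 and 0.62. Its relatives outside the list, Pparg (log2 fold change 0.02, limma adjusted p = 0.952) and Ppara (-0.22, 0.387), did not pass. Rora, an orphan receptor gene of the clock and of lipid metabolism, measured 109 and 114 CPM in dermal samples against 102 and 97.7 CPM in inguinal samples, a small difference that did not pass (log2 fold change 0.16, limma adjusted p = 0.402). Its paralogue Rorb had 2 dermal and 15 inguinal reads, below the filter.

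The remaining receptors are orphans, with no established hormone. Nr5a2, which encodes a phospholipid-binding receptor best known in liver and gonad, measured 2.73 and 4.36 CPM in dermal samples against 6.33 and 19.4 CPM in inguinal samples. Both inguinal libraries were higher, but inguinal replicate 2 lay farther from inguinal replicate 1 than that library lay from either dermal one, and the log2 fold change of -1.56 (SE 0.50) did not pass (limma adjusted p = 0.0850). Without inguinal replicate 1 it was -2.33 (adjusted p = 0.000779) and without inguinal replicate 2 it was -0.79, and DESeq2 called it (adjusted p = 0.00380). Nr2f6, a COUP-TF relative, measured 8.92 and 12.8 CPM in dermal samples against 4.73 and 6.69 CPM in inguinal samples (log2 fold change 0.87, SE 0.27, limma adjusted p = 0.0761). It passed without inguinal replicate 2 (1.10, adjusted p = 0.0247), and it shares 54.4% of its exon length with Ocel1 on the opposite strand. Nr2f2, which encodes COUP-TFII, a factor of venous endothelium and of adipocyte progenitors, measured 9.28 and 11.5 CPM in dermal samples against 11.7 and 15.9 CPM in inguinal samples and did not pass (-0.39, limma adjusted p = 0.281). Its share of the length-scaled level of the 3 Nr2f genes was 26.0% and 23.6% in dermal and 44.0% and 42.5% in inguinal libraries. In that share the mean level of Nr2f6 was 3.64 CPM per kilobase in dermal samples against 1.91 in inguinal samples, and that of Nr2f2 was 1.204 against 1.602. Reads of Ocel1 counted to Nr2f6 would enter the share as well. The endothelial markers were higher in inguinal libraries, and their part in the share was not tested. Nr2f1 had 5 dermal and 22 inguinal reads and stayed below the filter. Its ratio of inguinal over dermal normalized reads was 4.27, with a 95% counting interval of 1.58 to 14.4. The testicular receptors Nr2c1 and Nr2c2 (log2 fold changes 0.13 and 0.16) and the germ cell nuclear factor Nr6a1 (-0.38) did not pass. Nr2c2 shares 30.7% of its exon length with Mrps25 on the opposite strand. Nr1i3, the xenobiotic receptor CAR of liver, had 1 read in all 4 libraries together.

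**Figure D3:**
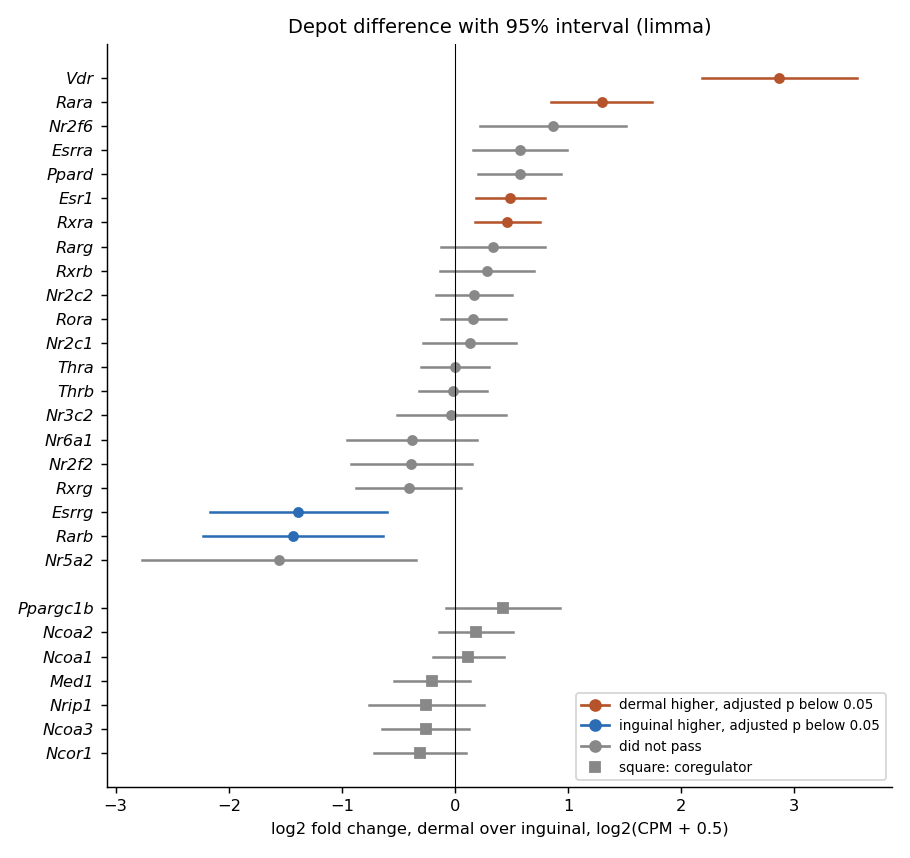
Log2 fold change of dermal over inguinal libraries with its 95% interval from limma for the 28 tested genes, circles for receptors and squares for coregulators. Vdr (2.87) and Rara (1.29) lie farthest to the dermal side, Nr5a2 (-1.56, not passed), Rarb (-1.43) and Esrrg (-1.39) farthest to the inguinal side, and the intervals of all 7 coregulators include 0.

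None of the coregulator genes passed in the comparison of the depots. Log2 fold changes of the 7 genes ran from -0.31 (Ncor1) to 0.43 (Ppargc1b). Ncor1, the corepressor of unliganded receptors, measured 492 and 488 CPM in dermal samples against 529 and 697 CPM in inguinal samples. The inguinal libraries were the higher pair but lay far apart, and the 95% interval of the log2 fold change was -0.72 to 0.10 (limma adjusted p = 0.259). Nrip1, which encodes RIP140, a corepressor that restrains oxidative genes in fat, measured 205 and 187 CPM in dermal samples against 289 and 189 CPM in inguinal samples. The depots overlapped, with inguinal replicate 1 standing above the other 3 libraries (log2 fold change -0.25, limma adjusted p = 0.453). Nrip1 passed without inguinal replicate 2 (-0.56, adjusted p = 0.0308), and without inguinal replicate 1 the value was 0.05.

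The p160 coactivators NCOA1, NCOA2 and NCOA3 bind liganded receptors and bring in histone acetyltransferases. Ncoa1 measured 106 and 91.9 CPM in dermal samples against 90.1 and 91.5 CPM in inguinal samples (log2 fold change 0.12, 95% interval -0.20 to 0.43). Ncoa2 measured 91.6 and 81.2 CPM in dermal samples against 71.9 and 80.2 CPM in inguinal samples (0.18, 95% interval -0.14 to 0.51). Ncoa3 measured 69.5 and 58.1 CPM in dermal samples against 69.1 and 84.1 CPM in inguinal samples, with overlap (-0.26, 95% interval -0.65 to 0.13). None of these 3 passed with limma (adjusted p 0.581, 0.404 and 0.312). Within the length-scaled sum of the 3 genes, Ncoa1 held 45.7% and 46.1% in dermal samples against 44.0% and 40.4% in inguinal samples. The Ncoa2 share was 21.7% and 22.3% against 19.3% and 19.4%, and the Ncoa3 share was 32.6% and 31.6% against 36.7% and 40.3%. The depots did not overlap for any of these 3 shares, which were not tested. The 3 shares are parts of the same sum, so they are not separate observations. Levels of the depots did not overlap for 61.8% of all tested genes either. Med1, the Mediator subunit that docks on receptors, measured 65.3 and 61.5 CPM in dermal samples against 67.3 and 79.5 CPM in inguinal samples (-0.21, limma adjusted p = 0.359). Ppargc1b, which encodes PGC-1beta, a coactivator of estrogen-related receptors, measured 13.7 and 15.5 CPM in dermal samples against 9.20 and 12.4 CPM in inguinal samples. Its dermal libraries were the higher pair and the difference did not pass (0.43, 95% interval -0.08 to 0.93, limma adjusted p = 0.215).

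**Figure D4:**
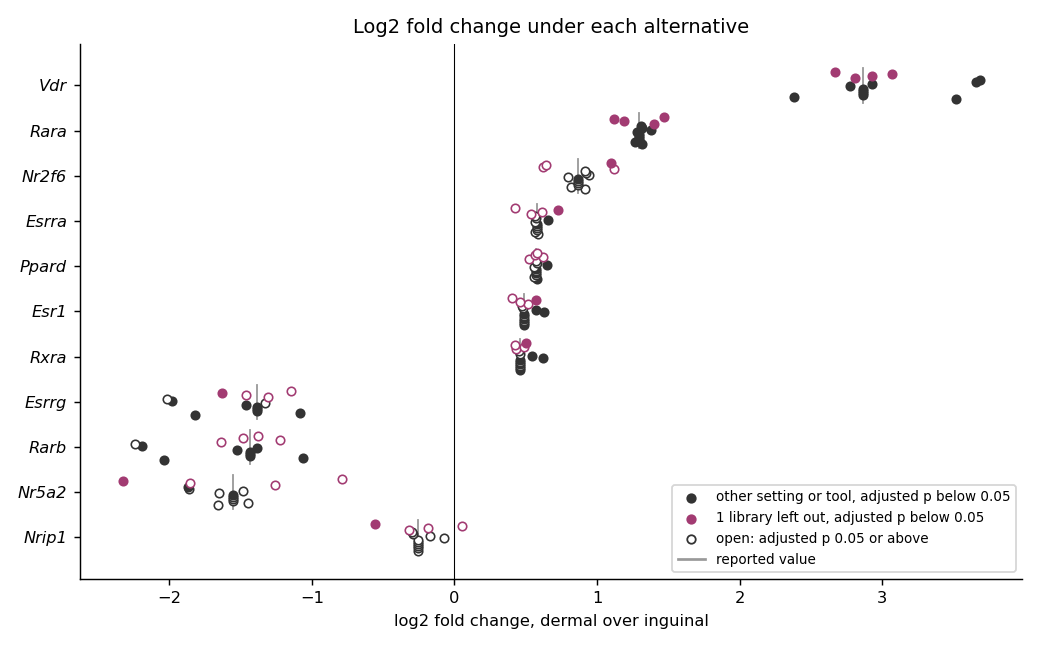
Log2 fold change of dermal over inguinal libraries for 11 members under each alternative analysis (filled, adjusted p below 0.05; open, 0.05 or above; magenta, 1 library left out; grey line, the reported value). Vdr and Rara are filled throughout, whereas Esr1, Rxra, Esrrg and Rarb each turn open in part of the alternatives.

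Other genes of the system were described from lists chosen by function, and their counts stand beside the 16.4% of all tested genes called. Of 12 tested nuclear receptors outside the member list, 1 was higher in dermal libraries and 5 were higher in inguinal libraries, and their median log2 fold change was -0.11. The 5 higher in inguinal libraries were the clock receptors Nr1d1 (-0.99) and Nr1d2 (-0.81) and the immediate early orphan receptors Nr4a1 (-1.86), Nr4a2 (-2.02) and Nr4a3 (-1.51). The Nr1d2 call ended without dermal replicate 2 (limma adjusted p = 0.0775), and the Nr4a3 call without dermal replicate 1 (0.112), inguinal replicate 2 (0.0507), a filter (0.0621) or the intensity trend (0.0530), and with the same total in each library (0.0519). Nr1h3, the liver X receptor alpha gene, did not pass (0.41, limma adjusted p = 0.0663) and passed under quantile normalization (0.52, adjusted p = 0.0326).

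Of 31 other coregulator genes, 2 passed as higher in dermal and 5 as higher in inguinal libraries, and the median was 0.02. The acetyltransferase gene Kat2a (0.61, limma adjusted p = 0.0486) passed as higher in dermal libraries, but not whenever a library was left out (adjusted p from 0.0584 to 0.290). In inguinal libraries Ppargc1a, which encodes PGC-1alpha, was higher, at 29.6 and 31.9 CPM against 14.6 and 10.7 CPM in dermal libraries (-1.26, SE 0.19, limma adjusted p = 0.00959), as was the deacetylase gene Sirt1 (-0.99, limma adjusted p = 0.00535). Ncoa7 (-1.32), the brown fat coregulator gene Prdm16 (-1.19) and Trim24 (-0.71) were the other 3. Prdm16 and Trim24 lost their calls without dermal replicate 1 (limma adjusted p = 0.0744 and 0.0778) or dermal replicate 2 (0.0504 and 0.148), and Trim24 also without the intensity trend (0.0577) and with the same total in each library (0.0528). Whether Ppargc1a differs from Ppargc1b in its depot difference was not tested. Of the 31 other Mediator genes, Med25 alone passed, at 31.5 and 33.3 CPM in dermal samples against 10.9 and 16.3 CPM in inguinal samples (1.25, SE 0.22, limma adjusted p = 0.0145). The share of Mediator genes called was 3.23%, below the 16.4% of all genes.

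None of the tested genes that make, carry or degrade the ligands passed. Of 26 such genes 25 were in the table and 15 were tested, and limma called 0. Of these 15, 7 had an unadjusted p below 0.05, edgeR called 0 and DESeq2 called 3. Over all 12797 tested genes, limma called 2094, 4164 had an unadjusted p below 0.05, edgeR called 2056 and DESeq2 called 1985. The most abundant ones were Fabp5, a fatty acid and retinoic acid carrier (203 and 210.2 CPM in dermal samples against 515 and 251 CPM in inguinal samples), the retinal reductase gene Dhrs3 (194 and 146 CPM, 159 and 107 CPM) and the retinol-binding protein gene Rbp4 (171 and 148 CPM, 191 and 101 CPM). Inguinal replicate 1 was above inguinal replicate 2 for each of these 3 genes, and the gap was wider than that between the dermal replicates.

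Textbook target genes of the receptors were read beside the receptors and against the 16.4% of all tested genes called, and no set was tested. Of 10 tested PPAR delta targets, 5 passed with a higher inguinal level and 1 with a higher dermal level, against 8.8% and 7.56% of all tested genes (median log2 fold change -0.69), with Pdk4, a brake on glucose oxidation, at 44.9 and 44.1 CPM in dermal samples against 279 and 215 CPM in inguinal samples (-2.45, SE 0.16, limma adjusted p = 0.00140). Ppard itself had a positive estimate, as given above. Of 7 tested retinoic acid receptor targets, the chemerin gene Rarres2 was higher in dermal libraries (0.72, limma adjusted p = 0.0247), Tgm2, a transglutaminase gene, was higher in inguinal libraries (-0.64, limma adjusted p = 0.0199), and Rarb itself was the third call. The calls of Rarres2 and Tgm2 both ended without either dermal replicate (adjusted p from 0.0955 to 0.174) and without the intensity trend (0.0616 and 0.0540). Of 9 tested thyroid hormone receptor targets, Hr, a corepressor gene of skin and hair, was higher in dermal libraries (27.5 and 41.6 CPM against 14.5 and 14.3 CPM, log2 fold change 1.21, limma adjusted p = 0.0168), and Bcl3 was higher in inguinal libraries (-0.94, limma adjusted p = 0.0170). The Hr call ended without dermal replicate 2 (0.0746) and the Bcl3 call without dermal replicate 1 (0.106). Keratinocytes express Hr, and the keratinocyte and hair follicle markers given above moved in the same direction. Their part in the Hr difference was not tested.

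Of 10 tested targets of estrogen-related receptors, which include Esrra itself, 9 had negative estimates and 2 passed as higher in inguinal libraries. Of all 12797 tested genes, 6218 had negative estimates and 8.8% passed as higher in inguinal libraries. Acadm, an acyl-CoA dehydrogenase gene, was among these (-0.66, limma adjusted p = 0.0219). The median of the 10 was -0.38. The Acadm call ended without dermal replicate 1 (adjusted p = 0.152), dermal replicate 2 (0.140) or the intensity trend (0.0514). Of 5 tested estrogen receptor targets, the chemokine gene Cxcl12 passed as higher in inguinal libraries, at 62.0 and 68.3 CPM in dermal samples against 105 and 159 CPM in inguinal samples (-0.99, limma adjusted p = 0.0246). The Cxcl12 call ended without dermal replicate 1 (0.0873), dermal replicate 2 (0.0504) or the intensity trend (0.0580) and with the same total in each library (0.0510). Endothelial cells and fibroblasts express Cxcl12, and the endothelial markers were higher in the same libraries. Of 14 tested fibroblast and progenitor markers, 2 passed as higher in dermal and 0 as higher in inguinal libraries. Their estimates were positive for 9 and negative for 5. The part of either cell type in the Cxcl12 difference was not tested.

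**Figure D5:**
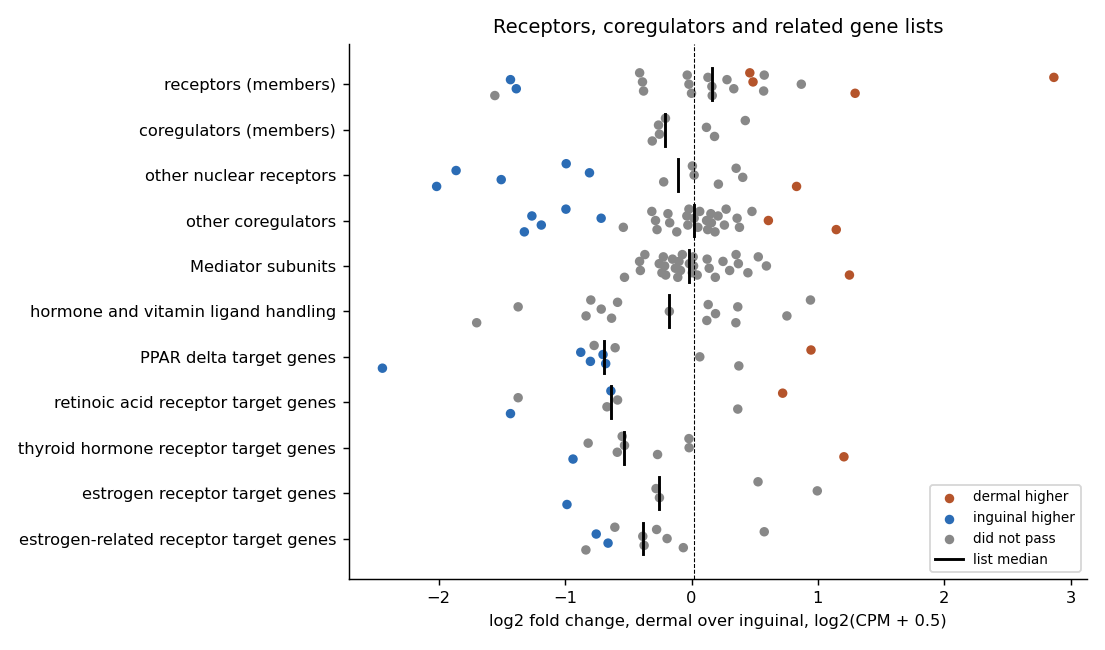
Log2 fold change of dermal over inguinal libraries for every tested gene of the member lists and of 9 related lists, with a black bar at each list median and a dashed line at the median of all tested genes (0.02). The receptor median is 0.16, the coregulator median is -0.21, and the PPAR delta target median is -0.69. Rarb, Thrb, Esrra and Nrip1 are members and also stand in a target list.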

How the data were processed

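RNA was measured in 2 dermal and 2 inguinal libraries, grouped by sample title. Per the labels' protocols, the kit was a stranded one for total RNA after DNase treatment. Per the submitters' processing notes the tools were bcl2fastq, FastQC, TopHat2 2.0.12, Picard 1.127, featureCounts of Subread 1.4.6 and edgeR with the mm10 build. Their settings are not given in the sources used here. The authors deposited 1 signal value per gene and library, a CPM that was scaled by library total and a further factor (0.930 to 1.04), since column sums differ. Whole reads were recovered from the value of 1 read for 100% of values within 0.001.

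The test was limma 3.58.1 (R 4.3.3) with an intensity trend, applied to log2(CPM + 0.5) of genes at 1 CPM or more in at least 2 libraries. edgeR 4.0.16 and DESeq2 1.42.0 were alternatives on recovered reads. The pipeline was tested on simulated data. The simulation gave every gene the same relative spread beyond counting error and drew the libraries independently. It therefore gives no error rate for these data. Shares within families used exon lengths from GENCODE M21. Intervals on read ratios are Clopper-Pearson, at 95%, and cover counting error only.

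Members and lists were chosen with earlier results of these data known. All members were reported, and of other lists the 2 called genes of lowest adjusted p and the 2 most abundant genes were eligible, with Pparg, Nr3c1, Ppara, Nr1h3 and Ppargc1a in any case. The text prints part of these, and some genes of the lists are not reported here. Ncoa7, Kat2a, Trim24, Prdm16, Nr1d1, Nr1d2, Nr4a3 and Top2b were named after their values were seen.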

Additional observations from a re-analysis of the deposited data

How the results depend on the processing

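Of the 14 alternatives (2 pseudocounts, 2 filters, no intensity trend, a replicate block, 2 scalings, 2 count tools and 4 left-out libraries), no called member changed direction where it was tested. Rarb and Esrrg were not tested with the filter at 5 CPM, which they did not reach. With the replicate block the fit called 4726 genes and 10 receptors, against 2094 and 6 without it. The 4 added receptors were Ppard (adjusted p = 0.00654), Esrra (0.00711), Nr2f6 (0.00224) and Nr5a2 (0.000136). Replicate numbers were not stated to pair the samples, and deviations of same-numbered libraries correlated at 0.46 across genes. DESeq2 called 3 receptors. With 1 library left out, the lone library of a depot is assumed to vary like the others. The totals then ran from 1023 to 2636 for all genes, from 2 to 6 for receptors and from 0 to 1 for coregulators. The cause of these changes was not tested. Depth limits Rarb, Esrrg, Nr2f1, Rorb, Esrrb and Nr1i3, for which 3 reads correspond to 0.253 to 0.291 CPM.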
